A study of Mus musculus with 62 samples.

Results

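A group of 9 genes that mark resident tissue macrophages were followed: the complement chains C1qa, C1qb and C1qc, the mannose receptor gene Mrc1, the adhesion molecule gene Vcam1, the receptor tyrosine kinase genes Axl and Mertk, the haem oxygenase gene Hmox1 and the iron exporter gene Slc40a1. They were chosen by name, and each of these 9 symbols matched exactly 1 row of the table of 37620 genes. The study profiled 62 RNA-seq libraries from mouse. Of these, 24 were monocytic and 24 progenitor libraries of the same 24 ER-Hoxb8 clones (clones 1 to 13 and 15 to 25). The other 14 came from primary monocytes sorted by flow cytometry from mouse bone marrow, with 2 libraries each of nonclassical, intermediate and classical monocytes and 2 each of the populations named class 1, class 2, class 3 and class 4. ER-Hoxb8 cells are granulocyte-monocyte progenitors from mouse bone marrow that carry an estrogen-regulated Hoxb8, which holds them in a dividing, immature state while it is active. They were grown in RPMI medium with serum, antibiotics and the cytokine SCF. All 48 clone libraries therefore share the Hoxb8 transgene, and each clone stands for 1 immortalised line. The titles mark the paired clone libraries only as Plus and Minus. Plus libraries are called progenitor and Minus libraries monocytic here, because the study describes paired progenitors and mature cells and active Hoxb8 keeps cells immature. The sorting gates, what defines classes 1 to 4, and the strain, age and number of the mice are not given in the sources used here, so p-values measure the spread between these libraries.

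C1q is the recognition unit of the classical complement pathway. It is built from A, B and C chains, and macrophages and related myeloid cells are its main source in the body. Axl binds Gas6, and Mertk binds Gas6 and Pros1. These ligands bridge the receptors to phosphatidylserine on dying cells, and so serve the silent removal of those cells. Hmox1 breaks haem down and frees its iron, and ferroportin, the product of Slc40a1, carries the iron out of the cell; macrophages that recycle red blood cells use both. Mrc1 takes up mannose-bearing glycoproteins, and Vcam1, which binds α4 integrins, is carried by macrophages of the marrow and spleen that hold developing or aged blood cells.

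The 3 C1q genes lie side by side on the minus strand of mouse chromosome 4, in the order C1qb, C1qc, C1qa between Ephb2 and Epha8. The RefSeq promoter table (build GRCm38.p6), with 250 bases before and 50 after each gene's start, had an entry for 5 of the 9 genes, namely C1qb, C1qc, Mrc1, Axl and Mertk. The promoters of C1qb and C1qc are shown because the levels of these genes ran together over the clones, and that of Mrc1 because it rose in the clones without passing the test between the sorted subsets. They lie at chr4:136886151-136886450 on the minus strand, chr4:136892865-136893164 on the minus strand and chr2:14229164-14229463 on the plus strand. Each is written 5′ to 3′ on the gene's own strand, and capitals mark matches, on either strand, to 4 motifs. These are the Ets core bound by PU.1 (GAGGAA), the AP-1 site (TGANTCA), the antioxidant response element (TGACNNNGC) and the nuclear receptor core motif (AGGTCA), which is only part of a full receptor site.
C1qb: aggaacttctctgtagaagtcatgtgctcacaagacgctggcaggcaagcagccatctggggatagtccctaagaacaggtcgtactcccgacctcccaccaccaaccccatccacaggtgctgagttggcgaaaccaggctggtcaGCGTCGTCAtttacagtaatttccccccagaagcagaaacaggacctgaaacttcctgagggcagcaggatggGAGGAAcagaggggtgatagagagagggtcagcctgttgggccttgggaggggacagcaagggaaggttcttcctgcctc
C1qc: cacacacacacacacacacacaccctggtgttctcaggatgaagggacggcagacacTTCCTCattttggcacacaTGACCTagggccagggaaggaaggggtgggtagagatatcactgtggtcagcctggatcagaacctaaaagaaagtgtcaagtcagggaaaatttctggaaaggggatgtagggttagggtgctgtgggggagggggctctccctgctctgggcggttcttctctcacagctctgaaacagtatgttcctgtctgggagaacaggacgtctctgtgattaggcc
Mrc1: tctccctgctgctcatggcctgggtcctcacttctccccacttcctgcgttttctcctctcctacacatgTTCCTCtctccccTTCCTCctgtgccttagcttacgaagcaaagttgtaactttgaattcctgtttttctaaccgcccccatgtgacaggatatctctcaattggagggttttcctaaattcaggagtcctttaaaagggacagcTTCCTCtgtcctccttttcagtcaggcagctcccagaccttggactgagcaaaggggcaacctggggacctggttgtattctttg
The capitals in C1qb are an antioxidant response element match that begins 103 bases before the start and an Ets core that begins 30 bases before it. Those in C1qc are an Ets core at 193 and a nuclear receptor core motif at 174 bases before the start. Mrc1 held 3 Ets cores, at 180, 167 and 35 bases before the start. Axl held 1 Ets core and Mertk no match to the 4 motifs. No matches overlapped in these windows. Among all 32817 promoters of the table, 28.3% held an Ets core, 7.81% an AP-1 site, 12.4% an antioxidant response element and 16.3% a nuclear receptor core motif, so such matches are common.

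The monocytic libraries held 1.83 to 34.5 M counts (M, mega), the progenitor libraries 0.362 to 47.3 M and the primary libraries 21.2 to 35 M. Depth of the monocytic libraries split the clones into sets: those of clones 15 to 25 held 1.83 to 9.12 M counts and those of clones 1 to 13 held 22.9 to 34.5 M. The progenitor libraries of the 2 sets overlapped in depth, at 0.362 to 16.5 M in clones 15 to 25 and 12.6 to 47.3 M in clones 1 to 13. The progenitor library of clone 21, at 0.362 M counts, stood apart: 32 genes exceeded 30 CPM (counts scaled to library size) there while lying over 10 times above the highest of the other 23 progenitor libraries, in which at most 2 such genes were found. The summed CPM of 10 monocyte markers was higher in the monocytic than in the progenitor library of 24 of 24 clones, at a median of 34190 against 2052, and that of 6 progenitor markers in 2 of 24, clones 19 and 22. The monocytic libraries of these 2 clones stood apart, with progenitor marker sums of 9809 and 17830 and the lowest monocyte marker sums, 8002 and 5191, and that of clone 19 held 6854 CPM of mast cell and basophil markers. They hold the lowest monocytic values of Hmox1 and Mertk (clone 19) and of C1qb and Axl (clone 22), so results over the clones are also given without them, an alternative chosen after seeing the data. The summed CPM of 10 neutrophil markers was also higher in 24 of 24 clones, with a median of 60280 in monocytic and 71.3 in progenitor libraries; its part in the results was not tested.

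Monocytic cells of the clones held more C1qb, C1qc, Mrc1, Mertk, Hmox1 and Slc40a1 than their progenitors, by 4.99 to 7.06 on the log2 scale, and more Axl by 1.495. In a fit with the clone as a block, 7 of the 9 genes had enough counts to be tested, and all 7 were higher in monocytic cells (edgeR quasi-likelihood test, adjusted over 11614 genes). That count has to be read against the whole transcriptome, of which 78.6% passed in either direction, 38.5% as higher and 40.1% as lower. The median change of the 7 tested genes was 5.66 on the log2 scale, against -0.024 over all tested genes; C1qa and Vcam1 failed the filter on low counts. Without clones 19 and 22 the same 7 were higher, by 5.16 (Hmox1) to 7.08 (C1qb) and by 1.58 for Axl. In that fit 9181 of 11559 tested genes passed, 4495 as higher and 4686 as lower. The lowest monocytic values without these clones were 2.28 CPM for C1qb, 126 CPM for Hmox1, 0.972 CPM for Mertk and 1.61 CPM for Axl.

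**Figure D1:**
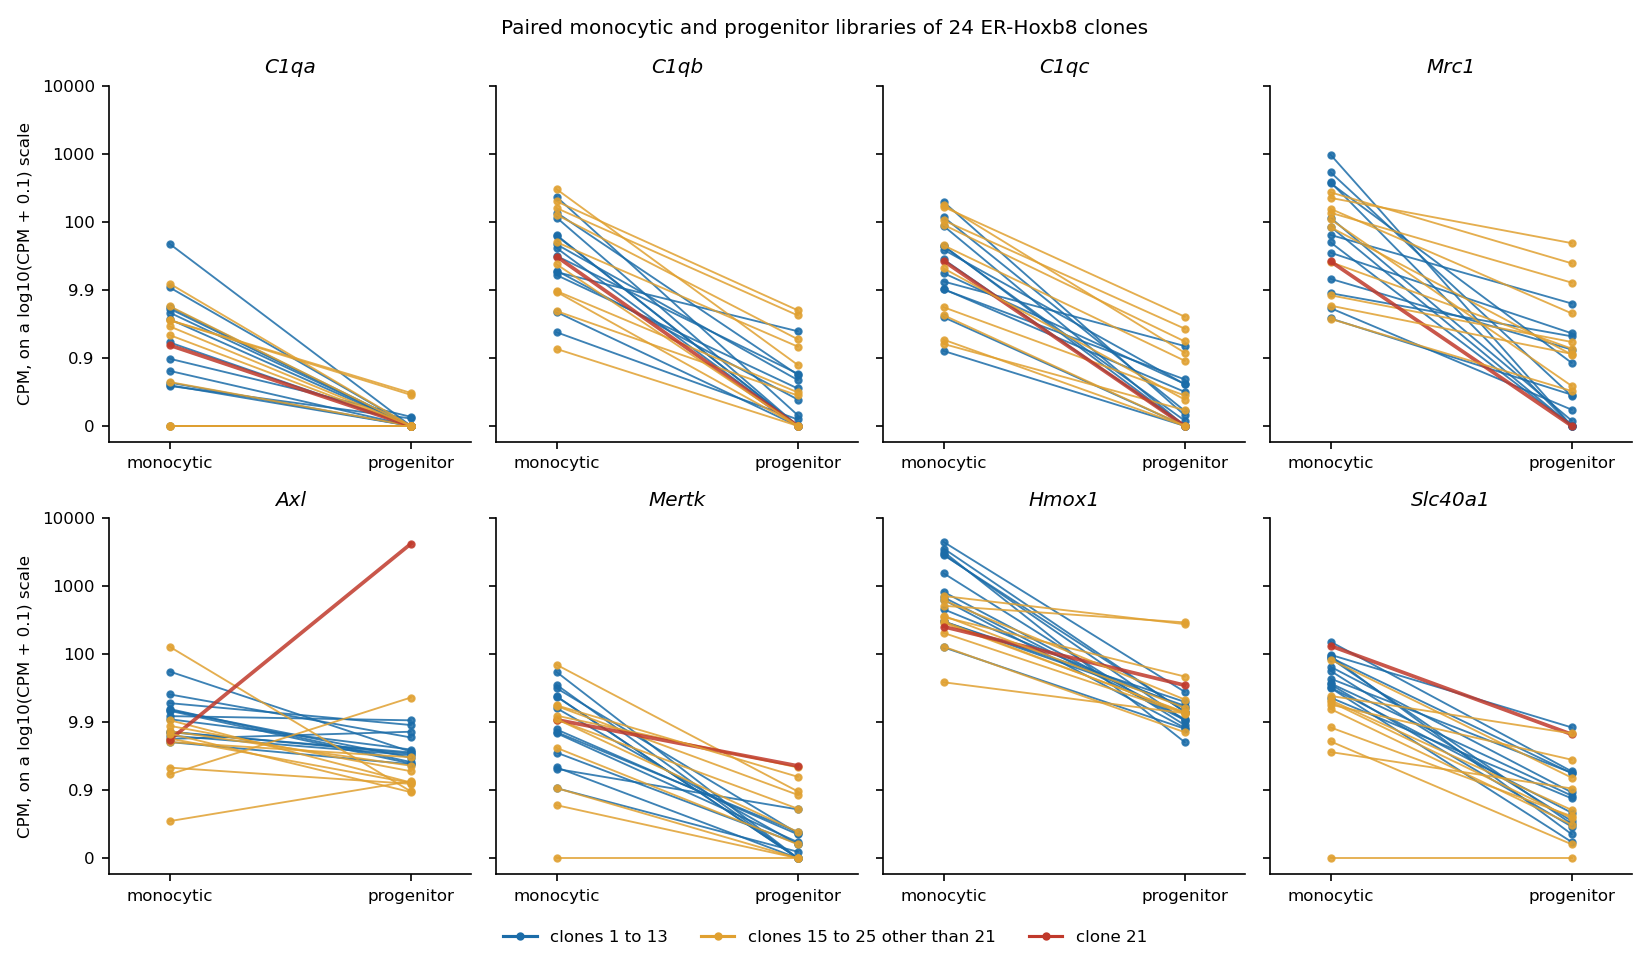
Levels of 8 genes in each of 24 ER-Hoxb8 clones, as CPM on a log10(CPM + 0.1) axis. Each line joins the monocytic (left) and progenitor (right) library of 1 clone. C1qb, C1qc, Mrc1 and Hmox1 had more CPM in monocytic than in progenitor cells in 24 of 24 clones, while for Axl the line of clone 21 climbs to 4204 CPM in the progenitor library.

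Among the C1q chains, C1qb spanned 1.26 to 303 CPM in the 24 monocytic libraries, with a median of 36.4, against 0 to 4.92 CPM in the progenitor libraries, with a median of 0.162. C1qc spanned 1.17 to 197 CPM in monocytic libraries, with a median of 27.3, against 0 to 3.94 with a median of 0.107 in progenitors. Both were higher in monocytic cells in 24 of 24 clones, although the ranges of the states overlapped across clones. The log2 fold change was 7.06 for C1qb (SE 0.496, adjusted p = 5.0e-13) and 6.81 for C1qc (SE 0.470, adjusted p = 3.5e-13, edgeR). C1qa, which was not tested, had a median of 1.83 CPM in monocytic libraries, with 4 of 24 at 0 and a highest value of 47.5 in clone 8, against 0 to 0.206 CPM in progenitors, of which 20 of 24 were at 0. C1qa was higher in the monocytic library of 20 clones and equal, at 0, in 4.

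Of the receptors for dying cells, Mertk had a median of 10.8 CPM (0 to 69.9) in monocytic and 0.0680 CPM (0 to 2.18) in progenitor libraries. It was higher in 23 of 24 clones and at 0 in both libraries of clone 19, with a log2 fold change of 5.98 (SE 0.523, adjusted p = 6.5e-11, edgeR). Axl, its relative, differed much less, with a median of 7.23 CPM (0.251 to 129) in monocytic and 2.94 CPM (0.837 to 4204) in progenitor libraries. Its monocytic value was the higher in 20 clones and the lower in clones 10, 21, 22 and 24, and its paired log2 fold change was 1.495 (SE 0.515, adjusted p = 0.0100, edgeR). The value of 4204 CPM is that of the clone 21 progenitor library, where 1929 reads lay on Axl; the next progenitor library held 22.97 CPM. Without clone 21 the log2 fold change was 1.67, and in a fit that ignored the pairing of libraries within a clone it was -3.51. In clones 15 to 25 alone it was 1.32 and did not pass (adjusted p = 0.33, edgeR).

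Of the genes for haem and iron, Hmox1 had a median of 488 CPM (38.6 to 4491) in monocytic libraries, against 14.01 CPM (4.99 to 294) in progenitors, and it was higher in 24 of 24 clones. Its log2 fold change was 4.99 (SE 0.510, adjusted p = 9.1e-10, edgeR). Slc40a1 had a median of 34.2 CPM (0 to 153) in monocytic and 0.535 CPM (0 to 8.28) in progenitor libraries, with a log2 fold change of 5.66 (SE 0.429, adjusted p = 3.8e-12, edgeR). It was higher in 23 clones and at 0 in both libraries of clone 25. Mrc1 had a median of 73.9 CPM (3.66 to 974) in monocytic and 0.883 CPM (0 to 48.7) in progenitor libraries, was higher in 24 of 24 clones and gained 5.57 on the log2 scale (SE 0.731, adjusted p = 9.2e-08, edgeR). Vcam1 overlaps the antisense Gm43109, and Mertk the antisense Gm14011 and the snoRNA Gm23172 on its own strand; the strand setting of the counting is not given in the sources used here, so these reads cannot be told apart. Reads on Mrc1 cannot be told apart from those on the miRNA gene Mir511, which lies within it on the same strand. Vcam1 stayed near 0 in both states, with a median of 0.566 CPM (0 to 4.47) in monocytic libraries and 20 of 24 progenitor libraries at 0. Its highest progenitor value, 21.8 CPM, came from 10 reads in clone 21; the highest of the other 23 was 0.124.

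Most tested genes of 4 of the 5 lists of related genes were also higher in monocytic cells, where 38.5% of all tested genes were higher and 40.1% lower. Of 15 tested complement genes, 11 rose and 4 fell, with a median log2 change of 3.53. C3, the central complement protein, had a median of 2061 CPM in monocytic and 4.86 CPM in progenitor libraries (log2 fold change 8.09), and the anaphylatoxin receptors C5ar1 and C3ar1 rose by 7.79 and 6.63. Of 18 tested genes for the uptake of dying cells, 14 rose and 1 fell, among them the scavenger receptor Msr1 at 6.29 and the phosphatidylserine-binding Cd300lf at 6.74; the engulfment adaptor Elmo1 had 158 CPM in monocytic and 170 CPM in progenitor libraries (medians) and did not pass. Of 24 tested haem and iron genes, 14 rose and 3 fell; Slc11a1, which carries iron out of the phagosome, gained 5.55 and Blvrb, which reduces biliverdin, 3.86. Of 18 other resident macrophage genes, 17 rose, led by the sialic acid receptor Siglec1 at 7.47 and Trem2 at 7.24, and the haemoglobin scavenger receptor Cd163 fell (-2.88). Of 8 tested partners of Vcam1 and lectin receptors, 4 rose and 3 fell; the adhesion ligand Icam2 fell by 1.72 and the β-glucan receptor Clec7a rose by 5.32.

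The change of Hmox1, Mertk and Slc40a1 differed between the clone sets. Taking first the set of clones 15 to 25 and then that of clones 1 to 13, the log2 fold change at maturation was 3.40 and 6.50 for Hmox1, 4.42 and 6.37 for Slc40a1, 6.13 and 7.82 for C1qb, 5.95 and 7.58 for C1qc, and 4.15 and 7.30 for Mrc1. Mertk, at 7.24 within clones 1 to 13, did not reach the filter within clones 15 to 25. A term for the difference passed for 3 of 7 tested members, all with a smaller change in clones 15 to 25, where 23.7% of tested genes passed and 17.3% were lower and 6.44% higher. Median Hmox1 was 304 CPM in monocytic and 16.3 CPM in progenitor libraries of clones 15 to 25, against 827 CPM and 11.1 CPM in clones 1 to 13. Without clones 19 and 22 the difference passed for 2, Hmox1 (-3.03, adjusted p = 0.0056) and Mertk (-2.61, adjusted p = 0.049, edgeR), while Slc40a1 did not pass (-2.23, adjusted p = 0.051, edgeR). In that fit 2010 of 11559 genes passed, 777 higher and 1233 lower. Depth of the monocytic libraries differs between the sets, so depth and set cannot be told apart.

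The members also varied among the clones. In the paired fit, the clone terms tested together passed for 4 of 7 tested members, where 11.7% of all tested genes passed. The 4 were C1qb (adjusted p = 0.0085), C1qc (0.0050), Axl (0.00010) and Slc40a1 (0.0395, edgeR). Without clone 21 this held for 2, since Axl (adjusted p = 0.17) and Slc40a1 (0.057) no longer passed. Without clones 19 and 22 it held for 3, and Slc40a1 did not pass (adjusted p = 0.071, edgeR). Within clones 1 to 13 alone none of the members passed, and 36 of 12024 genes did (723 at an unadjusted p under 0.05). Over all genes, 1243 of 11563 passed without clone 21 and 1320 of 11559 without clones 19 and 22. Whether a clone differed alike in both states is not asked by these terms, which also hold any difference between the clone sets. Axl in clone 21 had 4204 CPM in the progenitor and 5.39 CPM in the monocytic library.

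Whether a clone's progenitor level ran with its monocytic level was asked over the 24 clones for each of the 7 tested members, with p-values adjusted over all 11614 genes. No member passed, where 8.27% of all tested genes did, 8.1% with a positive and 0.164% with a negative r. Slc40a1 came nearest, at Pearson r = 0.47 and Spearman rho = 0.40 (permutation p = 0.0178, adjusted 0.114), and r was 0.501 without the 2 clones farthest from the median progenitor level, 1 and 24. C1qb and C1qc had r = 0.45 each (adjusted permutation p = 0.146 and 0.143). Without their 2 farthest clones, 18 and 23, r was 0.305 for C1qb and 0.311 for C1qc. Within clones 15 to 25, r was 0.758 for C1qb, 0.846 for C1qc and 0.689 for Slc40a1 (adjusted permutation p = 0.17, 0.099 and 0.21). Within clones 1 to 13 it was -0.0091, -0.115 and 0.402. Progenitor C1qb was at 0 in 5 of 13 libraries of clones 1 to 13 and in 4 of 11 of clones 15 to 25. The difference in r between the sets was not tested.

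The chains of C1q ran together over the monocytic libraries. For C1qb and C1qc, r was 0.967 and rho 0.982, for C1qa and C1qc r was 0.912 and rho 0.894, and for C1qa and C1qb r was 0.854 and rho 0.870. Each of the 3 pairs gave an adjusted permutation p of 1e-05, the smallest that the permutations can give. The r values were 0.962, 0.899 and 0.824 without the 2 farthest clones, 0.988, 0.886 and 0.837 without clones 19 and 22, 0.994, 0.917 and 0.894 within clones 1 to 13, and 0.948, 0.929 and 0.842 within clones 15 to 25. Over the 24 monocytic libraries, with the mean of each clone set removed, Mertk ran closest to C1qc among the other members (r = 0.916), Mrc1 ran with C1qb at 0.780, and Vcam1 ran at -0.310 with C1qb. These last values are a description of libraries that share culture and differ in depth. Vcam1 lay near 0 in them (median 0.566 CPM) and failed the count filter.

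**Figure D2:**
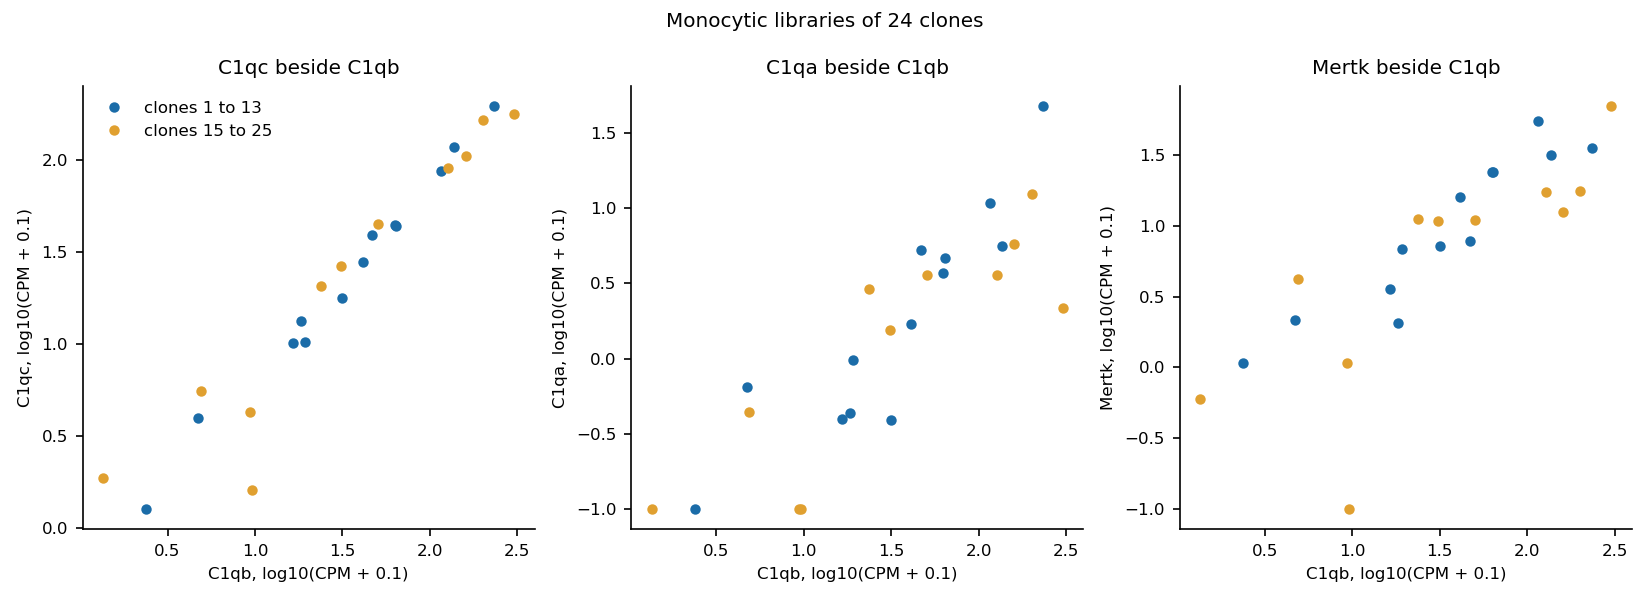
C1qc, C1qa and Mertk (y axes) beside C1qb (x axes) in the monocytic library of each of 24 clones, all as log10(CPM + 0.1); colours mark clones 1 to 13 and clones 15 to 25. C1qb and C1qc lie close to 1 line (r = 0.967 on log2 CPM), and C1qa at 0 appears at the foot of its panel.

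By the same set-centred measure over 24 libraries, the genes most like the mean of the C1q chains among 8187 ranked genes were Rab3il1 (r = 0.908), Sesn1 (0.878), Wwp1 (0.872), Cbr2 (0.866), Maf (0.857) and Apoc1 (0.852). Cbr2 (0.892) and Rab3il1 (0.882) were also the 2 most like Mrc1. The nearest to Axl were Nmi (0.894) and Slfn8 (0.880), to Mertk Abca1 (0.894) and Gopc (0.892), to Hmox1 Ywhag (0.929) and Cat (0.880), to Slc40a1 Aggf1 (0.867) and Zmynd11 (0.860), and to Vcam1 Stard4 (0.718) and Ube2c (0.700). Over the 14 primary libraries 7778 genes were ranked, all of which had also passed the count filter in the clones. Genes expressed in primary cells alone were thus left out. Of those ranked, the nearest to the C1q chains were Cd81 (0.962), Il21r (0.939), Ccnd2 (0.925), Rgl1 (0.915), Gimap6 (0.913) and H2-Oa (0.910). No mean of a population was removed for these values, and they were not tested.

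In the sorted monocytes, the C1q chains, Vcam1 and Slc40a1 were near 0 in classical cells and far higher in both other subsets. C1qb had 395 and 310 CPM in the nonclassical libraries and 330 and 275 CPM in the intermediate libraries, against 1.11 and 1.12 CPM in the classical libraries. C1qa had 124 and 68.0 CPM in nonclassical and 184 and 107 CPM in intermediate cells, against 0.358 and 0.958 CPM in classical cells. C1qc had 206 and 138 CPM in nonclassical and 247 and 152 CPM in intermediate cells, against 0.930 and 0.692 CPM in classical cells. The classical libraries lay below all 4 others for each chain, with no overlap. Vcam1 had 18.1 and 44.3 CPM in nonclassical and 50.8 and 44.1 CPM in intermediate cells, against 0.215 and 0.958 CPM in classical cells. Slc40a1 had 30.1 and 75.0 CPM in nonclassical and 111 and 79.3 CPM in intermediate cells, against 1.57 and 2.02 CPM in classical cells.

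These 5 genes were the members that passed in both comparisons. Between nonclassical and classical monocytes, 5 of 9 members were higher, where 5.82% of 13944 tested genes passed and 2.91% were higher and 2.9% lower. The log2 fold changes were 8.36 for C1qb (SE 0.333, adjusted p = 0.0029), 7.78 for C1qc (SE 0.525, adjusted p = 0.0073), 7.30 for C1qa (SE 0.770, adjusted p = 0.015), 5.78 for Vcam1 (SE 0.908, adjusted p = 0.036) and 4.88 for Slc40a1 (SE 0.528, adjusted p = 0.016, edgeR). Between intermediate and classical monocytes the same 5 of 9 were higher, where 2.11% of genes passed and 1.19% were higher and 0.918% lower, with log2 fold changes of 8.14, 7.98, 7.88, 6.43 and 5.79 in the same order (adjusted p = 0.0042, 0.013, 0.025, 0.048 and 0.024, edgeR). The median log2 change of the 9 members was 4.88 and 5.79, against 0.108 and 0.115 over all genes. Without either classical library none of the 5 passed in either comparison, nor did any of the 15313 and 15433 genes then tested (1446 and 1494 had an unadjusted p under 0.05 in nonclassical against classical cells, 1134 and 1318 in intermediate against classical cells). The Vcam1 call in nonclassical cells was also lost without either intermediate library or nonclassical replicate 2. Between intermediate and classical monocytes, leaving out either intermediate library lost most or all of the member calls, as it did for the calls over all tested genes.

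The other 4 members did not pass with edgeR between these subsets. Mrc1 had 57.6 and 29.95 CPM in nonclassical and 36.3 and 33.6 CPM in intermediate cells, against 11.3 and 6.33 CPM in classical cells (log2 fold change 2.38 and 2.04, adjusted p = 0.079 and 0.12). Axl had 194 and 113 CPM in nonclassical and 120 and 100.1 CPM in intermediate cells, against 62.4 and 48.1 CPM in classical cells (1.55 and 1.05, adjusted p = 0.092 and 0.20). Hmox1 had 233 and 493 CPM in nonclassical and 239 and 428 CPM in intermediate cells, against 127 and 141 CPM in classical cells (1.46 and 1.38, adjusted p = 0.12 and 0.15). For these 3 genes too, the classical libraries lay below the other 4. Mertk had 10.6 and 12.4 CPM in nonclassical and 5.38 and 0.784 CPM in intermediate cells, against 2.22 and 0.798 CPM in classical cells, so that intermediate and classical cells overlapped. DESeq2 called 9 and 8 of the members higher in the same comparisons. Over all 13944 genes DESeq2 called 3366 and 3102, of which 1807 and 1767 were higher. Between nonclassical and intermediate monocytes no member passed, where 0 of 13944 genes passed with edgeR, 1710 had an unadjusted p under 0.05 and DESeq2 called 1205.

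Markers of other cells moved with these subsets. The summed CPM of 8 B cell markers was 1902 to 2061 in nonclassical and 406 to 445 in intermediate libraries, against 33.4 to 36.3 in classical libraries. That of 6 mast cell and basophil markers was 1759 to 7131 in nonclassical and 4065 to 8699 in intermediate libraries, against 7.66 to 17.4 in classical libraries; in each group all markers of both lists were detected. Dendritic cell markers summed to 917 to 1164, 581 to 873 and 58.5 to 75.1, erythroid markers to 168 to 181, 71.6 to 520.3 and 5.97 to 8.94, progenitor markers to 320.1 to 521, 3551 to 9026 and 313 to 468, and neutrophil markers to 402 to 1591, 5385 to 5634 and 1014 to 1419 in nonclassical, intermediate and classical libraries. In the same order, stromal and endothelial markers summed to 137 to 164, 141 to 175 and 21.1 to 25.4, and T and NK cell markers to 41.3 to 81.8, 81.2 to 421 and 7.15 to 9.53. Markers at 0 in both libraries included Emcn in all 3 subsets, Epor and Ccr9 in nonclassical, Cd8a in intermediate, and Epor, Tek and Col3a1 in classical cells. Monocyte markers summed to 18270 to 27380 in nonclassical, 12670 to 13090 in intermediate and 46680 to 51010 in classical libraries. Their part in the result was not tested, and in these bulk samples a change in the share of a cell type and a change of RNA per cell cannot be told apart.

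The genes of the related lists that passed between the subsets are to be read beside the 5.82% of all tested genes that passed in nonclassical and the 2.11% in intermediate against classical cells. In nonclassical against classical cells the median log2 change was 1.455 for the complement, -0.13 for the uptake, 1.002 for the haem and iron, 2.04 for the resident macrophage and 0.58 for the partner list, against 0.108 over all genes. In nonclassical against classical cells, 2 of 24 complement genes were higher and 2 lower; Cd55, which dissolves the convertases, had 92.4 and 146 CPM in nonclassical and 0.213 and 0.322 CPM in classical cells (log2 fold change 8.82), and Cd93 had 14.1 and 29.4 CPM in nonclassical and 92.6 and 126 CPM in classical cells (-2.32). Of 23 uptake genes 2 were higher and 2 lower, the scavenger receptor Cd36 by 6.01 and the Axl and Mertk ligand Gas6 by 4.37 among those that were higher. Of 28 haem and iron genes 3 were higher and none lower, including the ferritin chain Fth1, with 10570 and 12380 CPM in nonclassical and 2566 and 3044 CPM in classical cells, and Spic, a transcription factor of red pulp and marrow macrophages, by 6.34. Of 29 resident macrophage genes 5 were higher and 1 lower, among them Spic again, the lipid transfer gene Pltp by 4.41 and Apoe by 4.35. Of 10 tested partners and lectin receptors, Cd209a was higher by 4.63 and Itgb7 fell by 1.56. In intermediate against classical cells, 2, 1, 1, 3 and 1 genes of these lists were higher, and Cfp was the 1 gene that was lower; Spic passed in both comparisons, at 6.34 and 6.94.

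**Figure D3:**
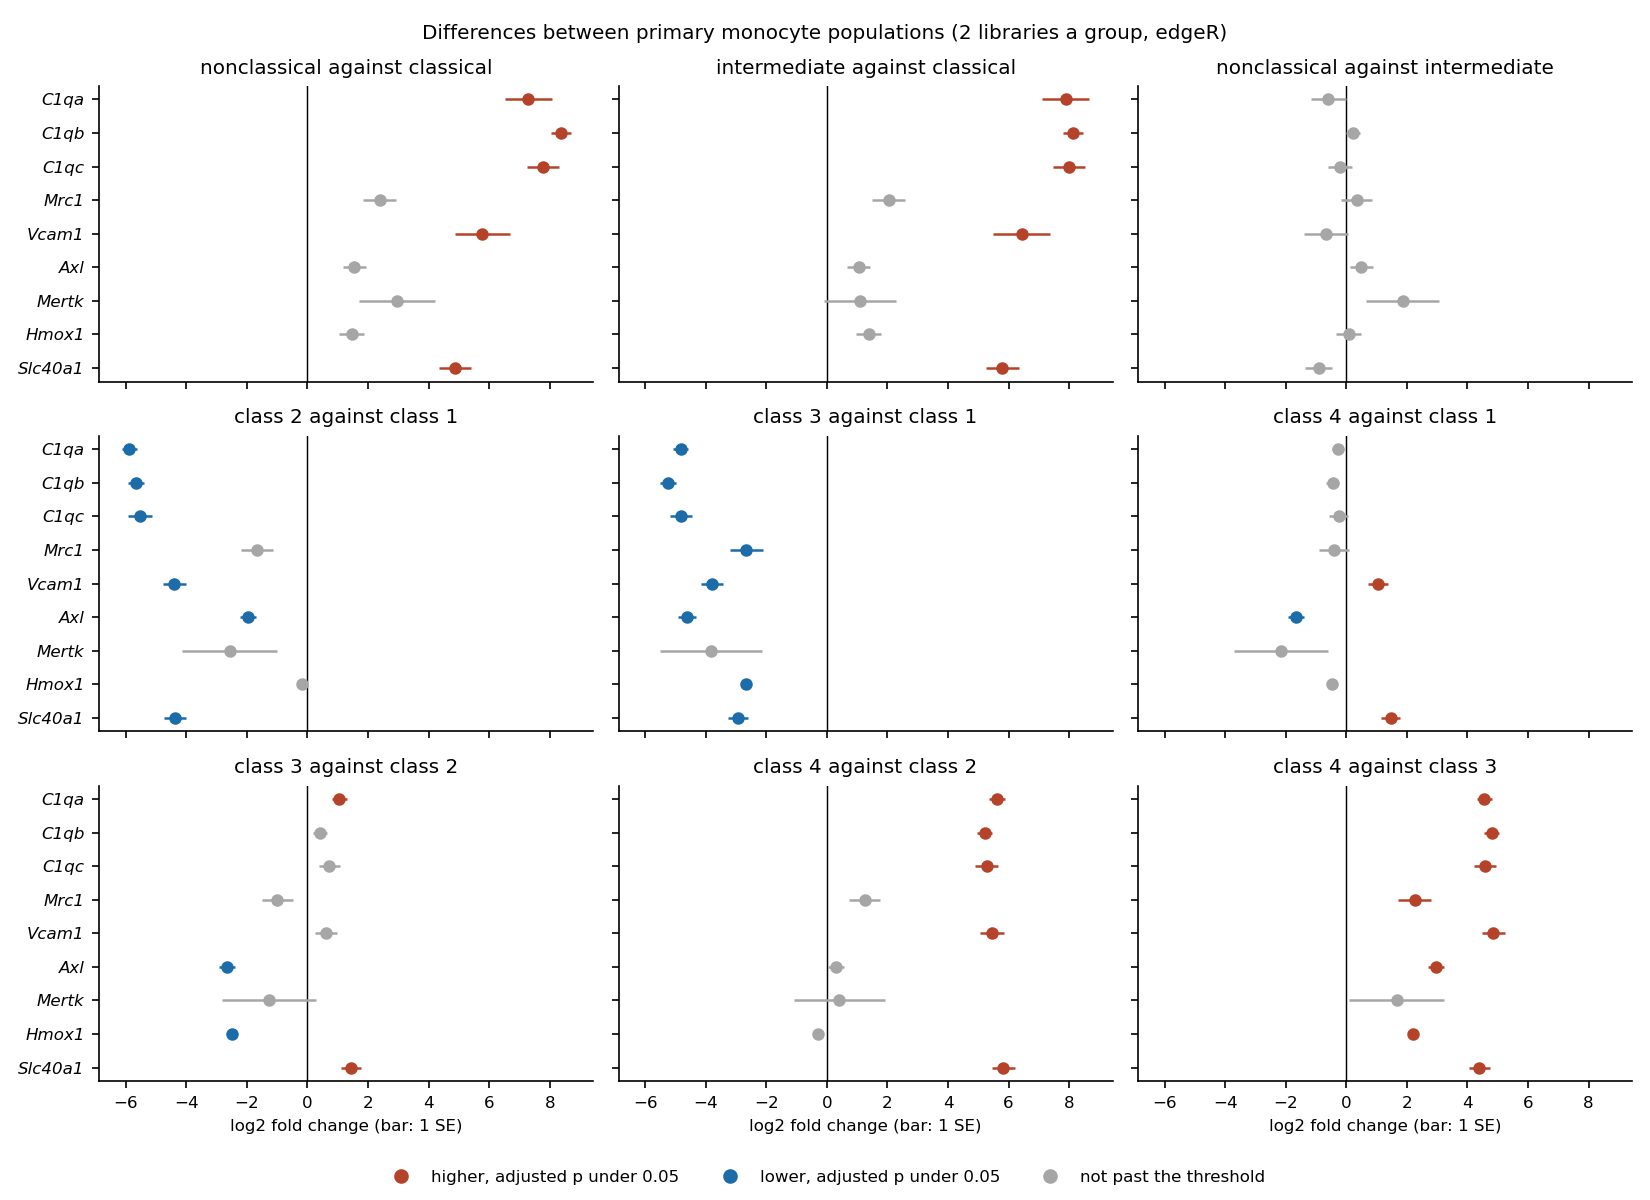
Log2 fold change of each of the 9 genes (x axis) in 9 comparisons of primary populations, 2 libraries a group, with bars of 1 SE; red points were higher and blue points lower at an adjusted p under 0.05 (edgeR), and grey points did not pass. The 3 C1q chains stand together at 7.30 to 8.36 in nonclassical against classical cells and between -5.88 and -5.53 in class 2 against class 1.

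The classes fell into a pair with high and a pair with low C1q. C1qb had 414 and 327 CPM in class 1, 6.92 and 7.05 CPM in class 2, 11.6 and 7.76 CPM in class 3 and 298 and 242 CPM in class 4. C1qa had 214 and 160 CPM in class 1, 3.43 and 2.54 CPM in class 2, 7.21 and 5.87 CPM in class 3 and 143 and 166 CPM in class 4. C1qc had 312 and 232 CPM in class 1, 6.41 and 4.66 CPM in class 2, 12.8 and 6.32 CPM in class 3 and 247 and 209 CPM in class 4. Classes 1 and 4 overlapped for C1qa and C1qc and lay far above classes 2 and 3 for all 3 chains. Any difference among the classes passed for 8 of 9 members, all but Mertk, where 43.8% of 13686 tested genes passed.

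Vcam1 and Slc40a1 shared the high and low classes but were highest in class 4. Vcam1 had 117 and 124 CPM in class 1, 4.68 and 6.22 CPM in class 2, 10.1 and 7.07 CPM in class 3 and 336 and 164 CPM in class 4. Slc40a1 had 129 and 121 CPM in class 1, 4.65 and 7.05 CPM in class 2, 21.6 and 11.1 CPM in class 3 and 378 and 310.4 CPM in class 4. Axl and Hmox1 followed another order, lowest in class 3. Axl had 459 and 411 CPM in class 1, 82.3 and 129.8 CPM in class 2, 20.9 and 14.2 CPM in class 3 and 145 and 129 CPM in class 4. Hmox1 had 259 and 280.2 CPM in class 1, 205 and 249.4 CPM in class 2, 44.4 and 39.8 CPM in class 3 and 203 and 182 CPM in class 4. For both genes the class 3 libraries lay below those of the other classes. Mrc1 had 58.2 and 59.8 CPM in class 1, 11.9 and 23.5 CPM in class 2, 10.8 and 7.72 CPM in class 3 and 66.4 and 22.2 CPM in class 4, and its class 4 libraries spanned class 1. Mertk had 12.3 and 8.98 CPM in class 1, 2.44 and 0.933 CPM in class 2, 0.958 and 0.515 CPM in class 3 and 4.71 and 0 CPM in class 4, the last from 0 reads.

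Class 2 was lower than class 1 for 6 of 9 members, where 9.29% of tested genes passed and 5.95% were lower and 3.34% higher. The log2 fold changes were -5.88 for C1qa (SE 0.260, adjusted p = 1.9e-05), -5.66 for C1qb (SE 0.264, adjusted p = 1.9e-05), -5.53 for C1qc (SE 0.384, adjusted p = 9.1e-05), -4.40 for Vcam1, -4.36 for Slc40a1 and -1.96 for Axl (SE 0.260, adjusted p = 0.0028, edgeR). Hmox1 (-0.17), Mrc1 (-1.66) and Mertk (-2.57) did not pass. Class 3 was lower than class 1 for 8 of 9, where 13.4% passed and 7.94% were lower and 5.44% higher: the C1q chains fell by 4.82 (C1qa), 5.25 (C1qb) and 4.81 (C1qc), Axl by 4.62, Vcam1 by 3.80, Slc40a1 by 2.93, Hmox1 by 2.67 and Mrc1 by 2.66 (adjusted p = 0.016, lost without any 1 of the class 1 or class 3 libraries). Between class 3 and class 2, 4 of 9 passed, where 24.2% of genes passed, 11.8% higher and 12.4% lower: C1qa (1.05, adjusted p = 0.014) and Slc40a1 (1.43, adjusted p = 0.017) were higher, and Axl (-2.66) and Hmox1 (-2.49) lower in class 3 (edgeR).

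Class 4 differed from class 1 in 3 members, where 25.1% of tested genes passed, 10.2% higher and 15% lower. Slc40a1 was higher in class 4 (log2 fold change 1.46, SE 0.310, adjusted p = 0.012), as was Vcam1 (1.06, SE 0.329, adjusted p = 0.048), and Axl was lower (-1.66, SE 0.257, adjusted p = 0.0034, edgeR). The C1q chains did not pass, at -0.27, -0.45 and -0.25 for C1qa, C1qb and C1qc. The Vcam1 call was lost under most alternatives, for instance without class 4 replicate 1 (log2 fold change 0.45, adjusted p = 0.20), and the Slc40a1 call was lost without class 1 replicate 1 (adjusted p = 0.074) or replicate 2 (0.081). Against class 2, class 4 was higher in 5 of 9 members, where 40.9% of genes passed and 19.5% were higher and 21.4% lower: the C1q chains by 5.61, 5.21 and 5.28 (C1qa, C1qb, C1qc), Vcam1 by 5.46 and Slc40a1 by 5.82. Against class 3 it was higher in 8 of 9, all but Mertk, where 28.6% of genes passed and 13% were higher and 15.7% lower, with log2 fold changes of 2.19 (Hmox1) to 4.86 (Vcam1).

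Markers of other cells also differed between the classes. The summed CPM of 10 erythroid markers was 4149 to 5205 in class 4 and 54.1 to 122 in class 1, with all 10 detected in both, and that of 10 neutrophil markers was 524 to 1423 in class 1, 747 to 1108 in class 2, 6424 to 10640 in class 3 and 51000 to 71720 in class 4. B cell markers summed to 2114 to 2656 in class 4 and 350 to 374 in class 1. Of the markers, 9 of 10 erythroid, 9 of 10 neutrophil and 6 of 8 B cell genes passed as higher in class 4 against class 1. Monocyte markers summed to 59090 to 63340 in class 1, 72690 to 74920 in class 2, 26770 to 31060 in class 3 and 18590 to 18850 in class 4, and 10 of 10 passed as lower in class 4 against class 1. Mast cell and basophil markers summed to 940.3 to 1992 in class 4 and 5.08 to 11.4 in class 1, with 6 of 6 higher, and progenitor markers to 6637 to 6967 in class 4 and 440 to 687 in class 1, with 5 of 6 higher and 1 lower. T and NK cell markers summed to 44.0 to 55.8 in class 1, 1.45 to 2.14 in class 2, 47.3 to 56.9 in class 3 and 326 to 350.6 in class 4. In class 2 against class 1, 6 of 7 of these were lower, as were 6 of 10 erythroid markers (7.67 to 12.2 in class 2 and 54.1 to 122 in class 1), 3 of 6 mast cell and basophil markers (0 to 0.170 in class 2) and 3 of 6 progenitor markers (124 to 154 in class 2); Ncr1, Cpa3, Ms4a2, Fcer1a and Prss34 were among the markers at 0 in class 2. In class 3 against class 1, 8 of 8 B cell markers (54.3 to 63.8 in class 3) and 8 of 10 erythroid markers (2.27 to 4.37) were lower, and 5 of 6 mast cell and basophil markers (370.4 to 890.0) were higher. The part of these markers in the results for the classes was not tested.

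In class 3 and class 4, more genes of the resident macrophage, complement and uptake lists were lower than higher relative to class 1, as over all tested genes (7.94% lower and 5.44% higher in class 3, 15% and 10.2% in class 4). The median log2 changes of these 3 lists were -2.67, -1.07 and -0.44 in class 3 and -1.65, -0.75 and -0.86 in class 4, against 0.002 and 0.015 over all genes. Of 27 resident macrophage genes tested, 16 were lower and 1 higher in class 3 than in class 1, with Spic at -4.53, Pltp at -5.07 and Ms4a7 at -5.64. In class 4 against class 1, 12 were lower and 4 higher, among the higher ones Lyve1, at 2.04 and 15.9 CPM in class 4 and 0 in class 1, at least 136.5-fold higher for the mean of the class 4 libraries, which rests mostly on 1 of them, counting 3 reads over class 1 as the limit, and Cd5l, at 41.6 and 70.3 CPM in class 4 and 6.92 and 7.10 CPM in class 1. Of 23 complement genes tested, 4 were higher and 11 lower in class 4 than in class 1; C4b was at 0 in class 4 and at 4.58 and 7.83 CPM in class 1, at least 112.9-fold lower by the same limit. Of 27 haem and iron genes, 2 were higher and 9 lower in class 3 against class 1; Fth1 fell by 2.10. In class 4 against class 2, 8 haem and iron genes were higher and 8 lower, with Spic at 57.8 and 59.6 CPM in class 4 and 2.85 and 3.73 CPM in class 2. Of 23 uptake genes, 7 were lower and none higher in class 3 against class 1, and 9 lower and 1 higher in class 4 against class 1.

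**Figure D4:**
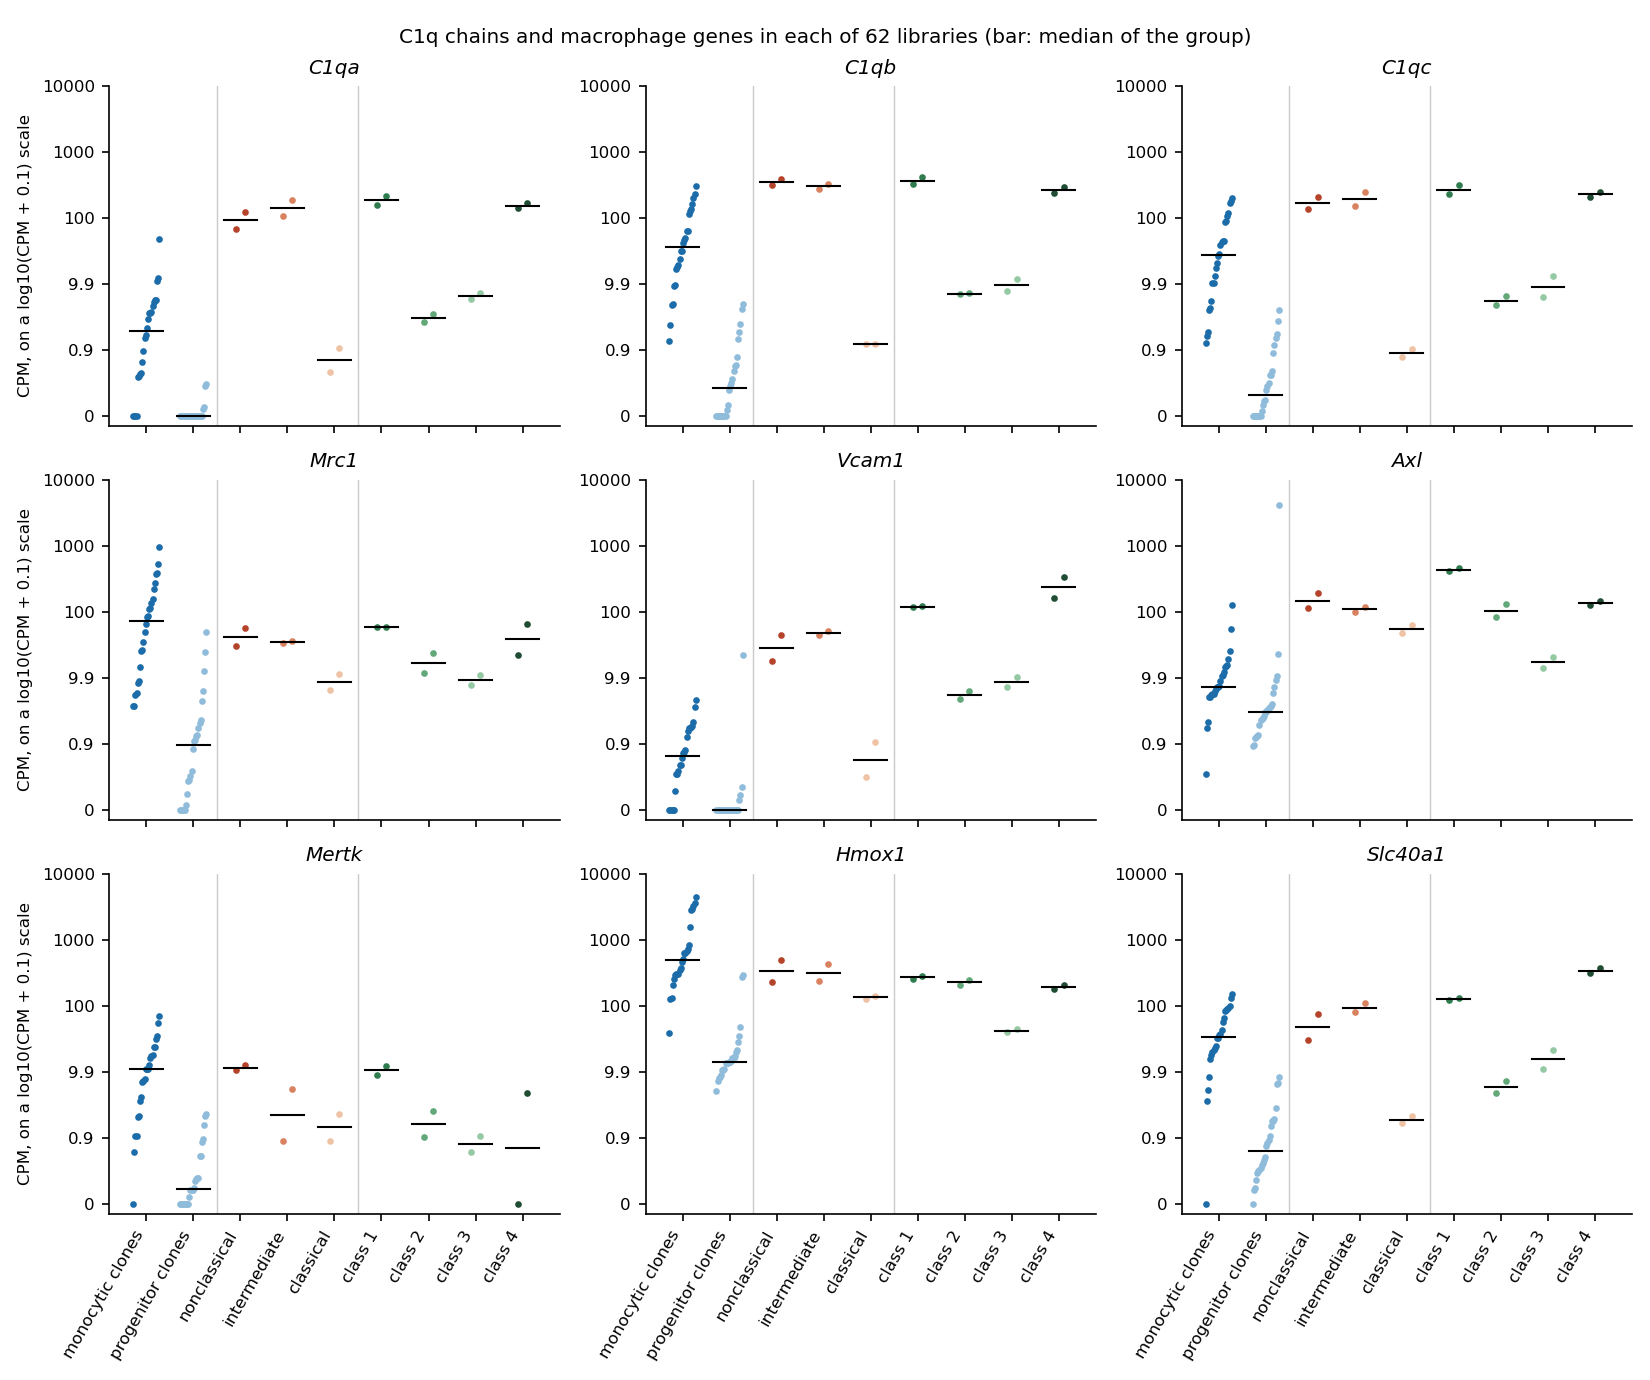
CPM of each of the 9 genes in all 62 libraries, on a log10(CPM + 0.1) axis, with a bar at the median of each group. In nonclassical, intermediate, class 1 and class 4 cells the C1q chains sit far above classical, class 2 and class 3 cells, and the 24 monocytic clones spread widely for C1qb and C1qc and lie mostly low for C1qa (median 1.83 CPM).

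Set on one scale over all 62 libraries, the order of the group means differed between the genes. For C1qb the order was class 1 (371 CPM), nonclassical (352), intermediate (303), class 4 (270.1), monocytic clones (71.4), class 3 (9.67), class 2 (6.99), classical (1.11) and progenitor clones (0.727). The ranges of the first 5 groups overlapped from neighbour to neighbour. That of the monocytic clones, 1.26 to 303 CPM, also covered class 3 and class 2. Class 3, class 2 and classical cells were separate from each other, while classical cells overlapped the progenitor clones. For Mrc1, Mertk and Hmox1 the monocytic clones had the highest mean, at 154, 15.4 and 1077 CPM, with ranges that overlapped the next group's. For Vcam1 and Slc40a1 class 4 came first (344 CPM for Slc40a1), above class 1 with no overlap, and for Vcam1 the monocytic clones, at 0.980 CPM, lay below all primary groups but the classical monocytes. For Axl class 1 led at 435 CPM, and the progenitor mean of 179 CPM rests on clone 21, without which it was 4.20 CPM. Clones and sorted cells differ in culture and handling, so these levels were not tested against each other.

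The r values between members also differed between the clones and the sorted cells. In the 14 primary libraries Vcam1 ran with C1qb at r = 0.91 and with Slc40a1 at 0.978, against -0.310 and -0.269 over the set-centred monocytic clones. Vcam1 lay near 0 in those clones, with a median of 0.566 CPM and 5 of 24 libraries at 0, and failed the count filter. Its r values in the clones thus rest on levels near 0. Mertk ran with C1qc at 0.366 in the primary libraries and 0.916 in the clones. The difference between these values was not tested, and the primary values describe 7 populations of 2 libraries each.

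The share of C1qa among all reads on the 3 chains separated clones from sorted cells. This comparison was chosen after its values were seen. In libraries with at least 20 such reads, C1qa made up 0 to 9.95% (median 2.44%) in 23 monocytic libraries and 0 to 7.89% in 7 progenitor libraries. The highest monocytic share was that of clone 8, with a 95% Wilson interval of 9.37 to 10.6%. In primary libraries it was 13.2 and 17.1% in nonclassical, 20.01 and 24.2% in intermediate and 14.9 and 34.6% in classical cells, 22.2 and 22.8% in class 1, 17.8 and 20.5% in class 2, 22.8 and 29.4% in class 3 and 20.8 and 26.9% in class 4. The share in every primary library lay above that in every clone library, but intervals overlapped where reads were few. That of classical replicate 1, with 67 reads, was 8.31 to 25.3%. The clone 20 progenitor library, with 38 reads, had an interval of 2.72 to 20.8%. Intervals cover counting error only. The number of C1qc reads for each C1qb read was 0.158 to 1.14 (median 0.712) in monocytic clones, 0.446 and 0.523 in nonclassical cells and 0.829 and 0.864 in class 4.

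**Figure D5:**
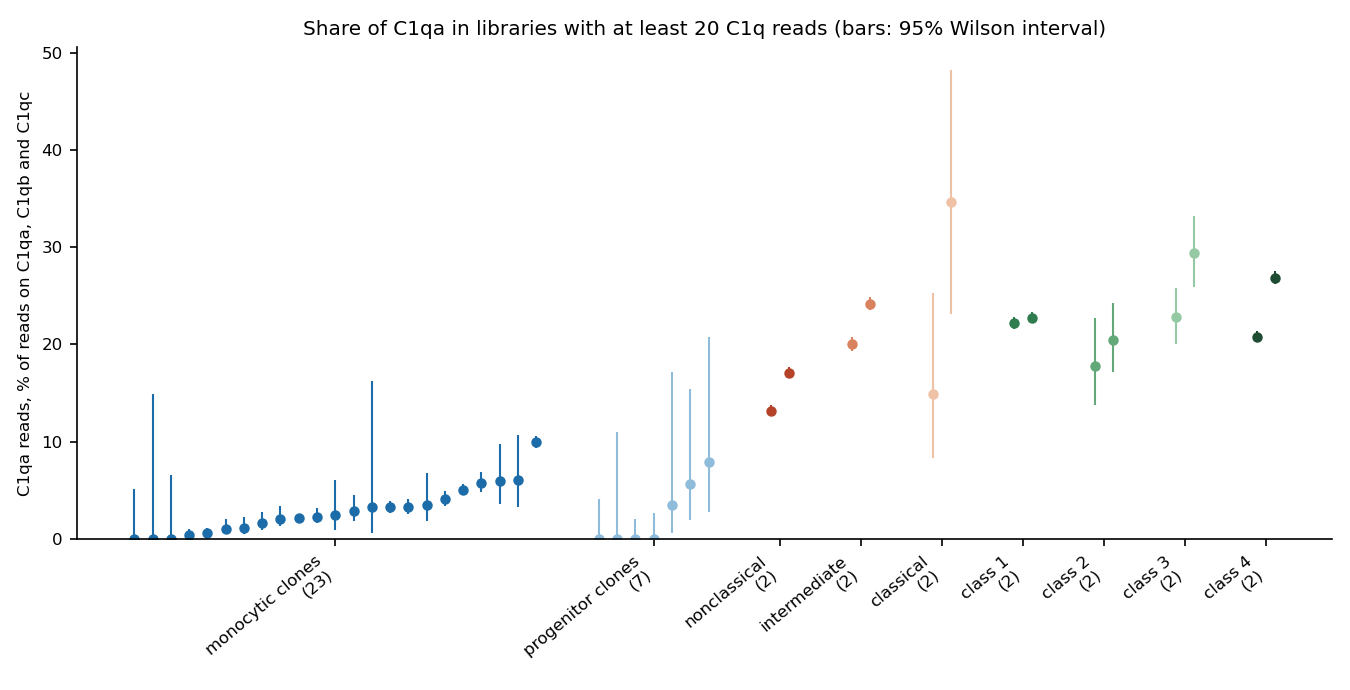
C1qa reads as a percentage of the reads on C1qa, C1qb and C1qc in each library with at least 20 such reads, with 95% Wilson intervals; the number of libraries stands under each group. Clone libraries lie at 0 to 9.95% and the primary libraries at 13.2 to 34.6%.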

How the data were processed

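Gene-level read counts of 62 RNA-seq libraries were taken from the authors' deposited count table. The build mm9, HTSeq 0.6.0 and the aligner STAR 2.7.3a are named, per the submitters' processing notes, with no role or order; the annotation and the strand setting are not given in the sources used here. In that table, 1 column matched no sample and was left out, and 32897 of 37620 identifiers matched a name in GENCODE M21. No 2 libraries held identical values.

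Counts were filtered (filterByExpr, minimum count 10), scaled by TMM and tested with edgeR 4.0.16 in R 4.3.3 (quasi-likelihood F test, Benjamini-Hochberg over all tested genes, threshold 0.05): 48 clone libraries with the clone as a block, from the study's statement that states are paired by clone; 6 subset libraries; 8 class libraries. CPM values are TMM-scaled over all 62 libraries. Correlations used log2 CPM (prior count 2) and 100000 permutations in Python 3.11.15 with numpy 2.4.6 and scipy 1.17.1. Further fits used DESeq2 1.42.0, other scaling, no filter and left-out libraries. The 9 genes are always named, with the genes of highest r to them; of each related list, genes named were up to 4 past the threshold with the largest change and the most expressed one not past it. Shares have 95% Wilson intervals. Scripts were tested on simulated data. The members and gene lists were chosen with earlier results of these data known.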

Additional observations from a re-analysis of the deposited data

Results flagged for a closer look

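The gain of Hmox1 at maturation differed between the clone sets, with a log2 change in clones 15 to 25 minus that in clones 1 to 13 of -3.14 (SE 0.671, adjusted p = 0.0017, edgeR). The same difference was -2.67 for Mertk (SE 0.901, adjusted p = 0.033) and -2.07 for Slc40a1 (SE 0.717, adjusted p = 0.037), and each was tested as a term of the fit. Without clones 19 and 22 the values were -3.03, -2.61 and -2.23, and Slc40a1 did not pass (adjusted p = 0.051, edgeR). Monocytic libraries of clones 15 to 25 held 1.83 to 9.12 M counts (M, mega) and those of clones 1 to 13 held 22.9 to 34.5 M, so set and depth cannot be told apart.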

How the results depend on the processing

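Over 1282 alternative values of single members, 1138 kept direction and side of the threshold, 69 were no longer past it, 49 newly passed and 26 changed sign. Of the counts, the clone effect passed for 8 members with no filter, 0 within clones 1 to 13 and 2 without clone 21, against 4. Over all genes it passed for 2054 of 24873, 36 of 12024 and 1243 of 11563 in the same order, against 1357 of 11614. Nonclassical against classical gave 8 members with all 14 primary libraries fitted together, 9 with DESeq2 and 0 to 5 with 1 library left out; intermediate against classical gave 8 with DESeq2 and 0 to 4. Class 4 against class 1 gave 5 with no filter, where 4467 of 21412 genes passed. Class 3 against class 2 gave 7 with no filter, where 3903 of 21412 genes passed. Retention passed for 1 member with a prior count of 0.5 (Slc40a1, r = 0.547), where 969 of 11614 genes passed. The Vcam1 call in intermediate against classical cells was lost with DESeq2 size factors (adjusted p = 0.051, edgeR). The cause of these shifts was not tested. Over all genes, nonclassical against classical gave 811 calls, 2742 with all 14 libraries, 3366 with DESeq2 and 0 to 869 with 1 library left out; intermediate against classical gave 294, 2331, 3102 and 0 to 205. Nonclassical against intermediate gave 0, 624 and 1205. With all 14 libraries, classes 2, 3 and 4 against class 1 gave 572, 888 and 1722 calls, against 1272, 1831 and 3442; class 3 against class 2 gave 2005, against 3310. The clone effect gave 1357 calls, 2054 with no filter, 387 in clones 15 to 25 and 36 in the other set, and maturation gave 9132, with 6070 for clones 15 to 25 alone. Leaving out clone 21 for the clone effect, set difference and retention was chosen after seeing the data, as were dropping the filter there and leaving out clones 19 and 22.

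With the replicate block, 5 members passed in nonclassical and 5 in intermediate against classical cells. In class 4 against class 1, 2 passed and Vcam1 was lost (1.01, adjusted p = 0.063, edgeR). No other call of a member changed. Over all genes, 670 and 263 of 13944 and 3230 of 13686 passed in the same order, against 811, 294 and 3442 without the block. With 2 pairs a comparison, the numbers were not taken to pair the libraries: deviations of same-numbered libraries correlated at r = 0.154 to 0.355 in the subsets and -0.016 to 0.064 in the classes. Mertk in class 4 against class 2 became -0.27 with the replicate block. Axl at maturation was -3.51 with no replicate block.

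Signs also turned as follows. Axl's set difference was 0.20 without clone 21 and 0.051 without clones 19 and 22. With 1 library left out, ranges were -0.89 to 1.94 for Mertk in intermediate against classical; -0.069 to 0.47 for C1qb, -0.63 to 0.13 for C1qc, -0.33 to 0.81 for Mrc1, -0.063 to 0.91 for Axl and -0.43 to 0.56 for Hmox1 in nonclassical against intermediate; -1.40 to 0.17 for Mrc1 in class 4 against class 1; -0.0046 to 0.68 for Axl and -8.48 to 1.39 for Mertk in class 4 against class 2; and -7.20 to 2.66 for Mertk in class 4 against class 3, where class 4 replicate 2 had 0 Mertk reads. Retention within clones 1 to 13 was -0.0091 for C1qb, -0.115 for C1qc, -0.295 for Mrc1, 0.120 for Axl, -0.343 for Mertk and 0.0338 for Hmox1; Axl's Spearman rho was 0.0409; Hmox1's r was 0.311 centred on each set and 0.602 within clones 15 to 25. C1qa and Vcam1 did not reach the count filter in the clones.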

Other observations

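In the clone 21 progenitor library, Axl (4204 CPM) was 1 of 32 genes far above the other 23 progenitor libraries. The others included Gpr180, at 49120 CPM against a highest of 205.5 CPM elsewhere, Stab1, at 1580 CPM against 9.68 CPM, and Magi1, at 702 CPM against 3.16 CPM. C1qa, C1qb, C1qc and Mrc1 had 0 reads in that library. These genes were chosen after their values were seen.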
